A study of Mus musculus with 22 samples.

Results

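The 10 genes described here encode the transcription factors and markers by which mouse embryonic stem cells (ESCs) are commonly recognized: *Pou5f1*, *Nanog*, *Sox2*, *Klf4*, *Esrrb*, *Zfp42*, *Tfcp2l1*, *Dppa5a*, *Tbx3* and *Klf2*. They were chosen by name and matched by Ensembl identifier to 10 of the 39179 gene identifiers in the deposited count tables. *Pou5f1*, a POU domain factor also called Oct4, and *Sox2*, an HMG box factor, bind DNA together at the regulatory elements of many genes that ESCs use. *Nanog*, a homeodomain factor, and *Esrrb*, *Tfcp2l1*, *Klf2*, *Klf4* and *Tbx3* form the network of naive pluripotency, which the cytokine LIF sustains through STAT3 and which is taken down when cells leave the naive state. *Sox2* is known to stay on in neural stem cells and glia, and *Klf2* and *Klf4* are known as endothelial and inducible factors outside the embryo.

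RNA from 22 samples on a B6x129SvJ strain background was sequenced, and the reads counted on each gene were deposited without normalization. ESCs came as 2 WT and 2 *Phf8* KO samples, and the KO allele lacks exons 7 and 8 of the gene, which encodes an X-linked histone demethylase, after Cre recombination in V6.5 ESCs that were expanded as clones. The labels describe the ESCs as grown out from blastocysts and kept on gelatin or feeders, and neural progenitor cells (NPCs, 3 WT and 3 KO) were taken from E16.5 embryos and grown as a monolayer. Ventral striatum (STR) and prefrontal cortex (PFC) were dissected from mice aged 2 months, with 3 WT and 3 KO samples each. No group carried a further treatment, allele or reporter in the labels. The labels do not say which samples came from separate cultures, clones or animals, so p-values measure the spread between these samples, which may be technical.

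The total count on genes ran from 5898286 to 15539811 over the samples. As a check of the labels, *Phf8*, in CPM (each count relative to its library's effective size, with TMM factors from all 22 samples), was 63.3 or more in WT and 22.3 or less in KO ESCs, at least 38.6 in every WT and at most 20.6 in every KO sample of the other tissues, so no sample went against its genotype label. The labelled cell types carried their markers: 12 neural progenitor genes summed to 6831 to 9953 CPM in NPCs and 109 to 175 CPM in ESCs, and 6 neuronal genes to 1687 to 2704 CPM in brain and 19.2 to 33.4 CPM in NPCs. Some libraries stood apart within their group. Both ESC libraries numbered 2, of WT and of KO, had 12 feeder fibroblast genes at 7787 and 9205 CPM in sum, and the libraries numbered 1 at 1506 and 1717. NPC libraries numbered 2 were low in 5 oligodendrocyte genes, at 66.2 (WT) and 196 (KO) CPM in sum where the others had 1423 to 2415. KO STR library 1 had 11 hypothalamic genes at 243 CPM in sum where the other striatal libraries had 39.1 to 66.4. Values without these libraries are given beside the results they touch, where a fit without them could be made.

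Start-site sequences are shown first because some of the 10 genes encode factors known to bind near the others. RefSeq start-site windows (250 bases before to 50 after a start, GRCm38.p6) were found for 8 of the 10 genes, as 11 windows. The 5 windows below are printed 5′ to 3′ in lower case. Capitals mark matches, on either strand, to letters that POU factors (ATGCAAA, and ATGCAAAT which contains it), Sox factors (CATTGTT), KLF factors (GGGCGTGG and GGGTGTGG) or the TATA box (TATAAA) are known for. The search for ATGCAAA was added after the windows were read. *Klf4* is shown as the window with the most CG dinucleotides and holds no match.
Nanog (chr6:122707239-122707538, plus strand): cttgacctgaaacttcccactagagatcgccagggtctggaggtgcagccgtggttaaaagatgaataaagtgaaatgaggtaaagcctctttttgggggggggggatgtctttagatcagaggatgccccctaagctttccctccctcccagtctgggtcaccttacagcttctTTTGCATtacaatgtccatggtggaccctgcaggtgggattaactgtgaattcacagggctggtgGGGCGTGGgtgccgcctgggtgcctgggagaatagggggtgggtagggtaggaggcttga
Zfp42 (chr8:43306960-43307259, minus strand): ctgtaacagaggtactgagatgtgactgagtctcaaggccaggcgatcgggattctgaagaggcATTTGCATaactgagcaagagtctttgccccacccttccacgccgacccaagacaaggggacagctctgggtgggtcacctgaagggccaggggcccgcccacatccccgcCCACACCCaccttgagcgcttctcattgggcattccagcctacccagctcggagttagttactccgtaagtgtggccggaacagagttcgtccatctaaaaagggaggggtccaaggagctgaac
Sox2 (chr3:34649745-34650044, plus strand): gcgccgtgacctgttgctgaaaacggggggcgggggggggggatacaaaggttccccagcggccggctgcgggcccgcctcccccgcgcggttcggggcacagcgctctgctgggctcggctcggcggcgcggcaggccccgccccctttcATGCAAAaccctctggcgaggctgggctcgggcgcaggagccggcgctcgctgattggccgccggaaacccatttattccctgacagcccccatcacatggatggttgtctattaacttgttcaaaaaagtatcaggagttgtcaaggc
Tfcp2l1 (chr1:118627695-118627994, plus strand): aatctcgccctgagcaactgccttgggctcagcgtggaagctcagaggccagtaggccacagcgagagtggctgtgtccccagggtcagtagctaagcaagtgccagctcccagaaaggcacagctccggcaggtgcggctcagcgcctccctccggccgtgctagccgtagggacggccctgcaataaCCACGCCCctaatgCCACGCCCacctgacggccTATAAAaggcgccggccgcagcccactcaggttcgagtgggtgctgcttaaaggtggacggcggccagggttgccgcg
Klf4 (chr4:55532426-55532725, minus strand): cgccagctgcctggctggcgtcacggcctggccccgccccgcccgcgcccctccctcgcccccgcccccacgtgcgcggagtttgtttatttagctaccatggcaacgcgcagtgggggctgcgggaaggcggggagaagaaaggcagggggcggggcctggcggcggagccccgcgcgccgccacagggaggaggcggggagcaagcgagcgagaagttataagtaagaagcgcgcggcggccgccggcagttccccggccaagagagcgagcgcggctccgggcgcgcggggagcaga

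*Nanog*, *Zfp42* and *Sox2* each held ATGCAAA, which begins 75, 185 and 99 bases before their starts, in a search where 4.63% of 32851 mouse windows of the same length held it. *Zfp42* alone among the 8 genes held the whole octamer ATGCAAAT, found in 1.74% of all windows. GGGCGTGG was present once in the *Nanog* window and at 2 places in the *Tfcp2l1* window, against 5.33% of all windows, and GGGTGTGG once in the *Zfp42* window, against 3.56%. CATTGTT was found in the second of the *Pou5f1* windows (3.78% of all windows), TATAAA in the *Tfcp2l1* window (13.6%), and TCAAGGTCA, the letters known for *Esrrb*, in no window of the 8 genes (0.423%). The windows also differed in their CG dinucleotides, of which the median window in the table held 7. *Klf4* held 40, *Klf2* 32, *Sox2* 27 and *Tfcp2l1* 21, and *Zfp42* and the first *Pou5f1* window held 11, *Esrrb* 7 and *Nanog* 4. A match is a description of letters in these windows and says nothing about binding.

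All 10 genes were high in every ESC library. Per length (RPKM, from the same scaled counts and the exonic length in GENCODE M21), *Dppa5a* led in WT ESCs with 1182 ± 160.0 (SD, n = 2), at rank 10 of 37693 genes with a length. *Pou5f1* followed at 413 ± 49.0 (SD, n = 2), *Sox2* at 349.8 ± 2.09 (SD, n = 2) and *Nanog* at 303 ± 31.7 (SD, n = 2). *Klf4* (175 ± 50 (SD, n = 2)), *Zfp42* (169 ± 2.86 (SD, n = 2)) and *Klf2* (169 ± 29.1 (SD, n = 2)) lay within 1 SD of each other and could not be put in order. *Esrrb* had 131 ± 14.3, *Tfcp2l1* 52.7 ± 8.26 and *Tbx3* 30.1 ± 0.943 RPKM (SD, n = 2 each), and *Tbx3*, the lowest, still had rank 2495. Reads of near copies limit the level of *Dppa5a* most: 38.6% of its 50-base stretches also occur in transcripts of other genes, among them Gm15310 and Gm6798, against 10.1% for *Pou5f1*, mostly with Gm19553 on the opposite strand, 8.52% for *Zfp42*, 4.62% for *Nanog* and 1.01% or less for the other 6.

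**Figure D1:**
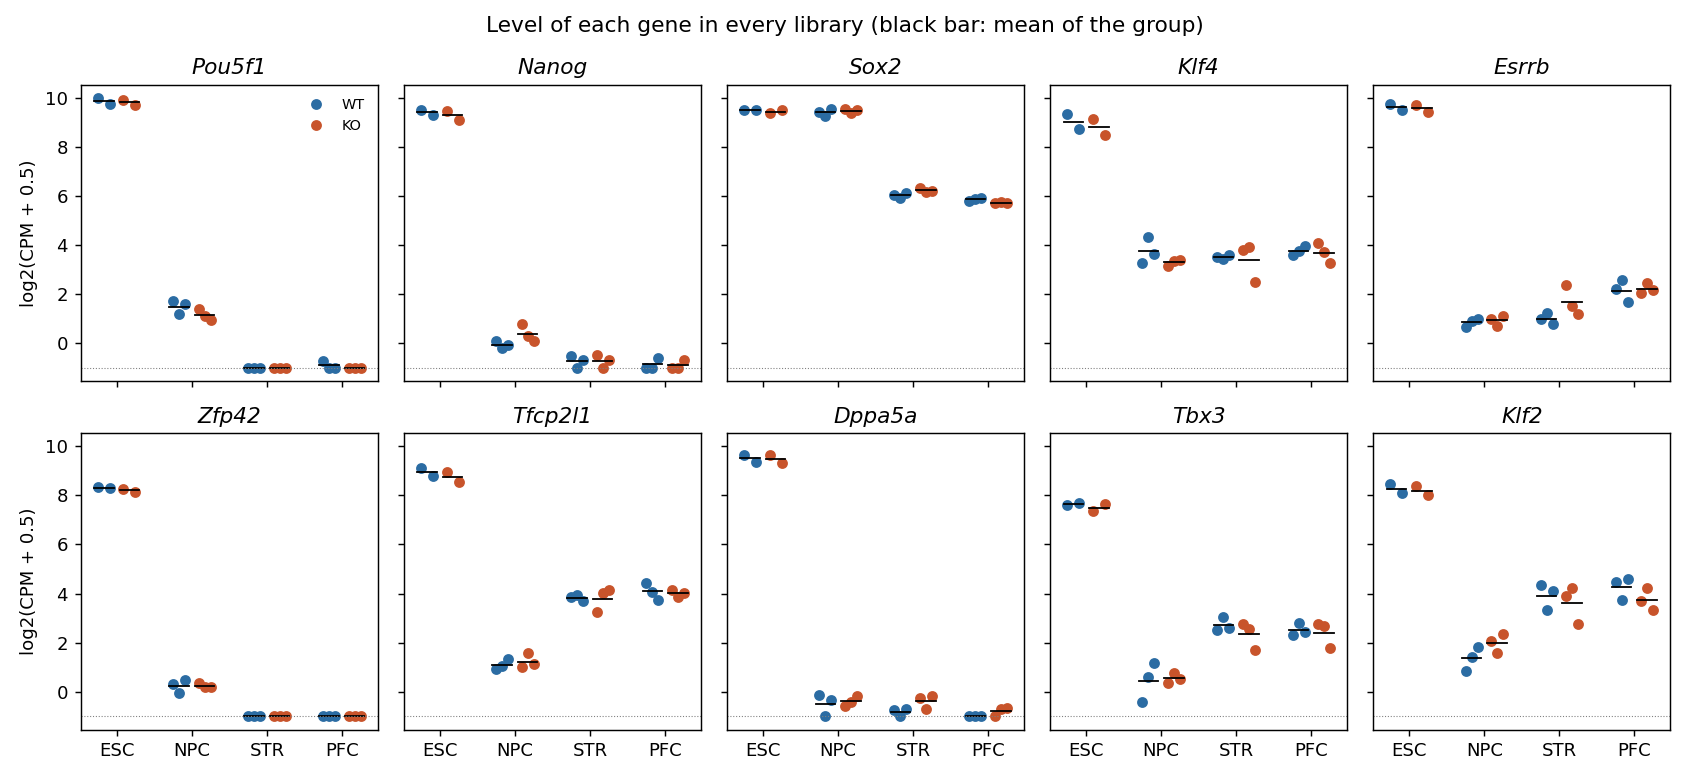
Level of each of the 10 genes in all 22 libraries, as log2(CPM + 0.5) on the vertical axis, by tissue, with WT in blue, KO in orange and a black bar at the mean of each group. Points on the dotted line at −1 are libraries with 0 counts. *Sox2* is alone in having NPC points at the height of the ESC points, and *Pou5f1* and *Zfp42* lie on the dotted line in nearly all brain libraries.

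The first question was whether loss of *Phf8* altered these genes in ESCs, and no gene of the 10 passed the unpaired test. *Pou5f1* had 1007 and 851 CPM in WT libraries 1 and 2 and 969 and 839 CPM in KO libraries 1 and 2. *Nanog* had 729.9 and 629 CPM in WT and 706 and 547 CPM in KO. For both genes the values of KO library 1 fell between the WT values and those of KO library 2 below them, and in each genotype library 1 was the higher.

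The same held for the naive factors. *Klf4*, a zinc finger factor, had 640.2 and 425 CPM in WT and 564 and 358 CPM in KO, and *Klf2*, its relative, 350.0 and 274 CPM in WT and 334 and 257 CPM in KO. *Esrrb*, an orphan nuclear receptor, had 851 and 729 CPM in WT and 845 and 689 CPM in KO. *Tfcp2l1*, a grainyhead-like factor downstream of LIF, had 552 and 442 CPM in WT and 488 and 377 CPM in KO. *Dppa5a*, an RNA-binding protein gene used as a stem cell marker, had 802 and 661 CPM in WT and 798 and 631 CPM in KO. In each of these 5 genes WT and KO overlapped.

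The other 3 genes showed a different order of the libraries. *Sox2* had 717 and 723 CPM in WT and 662 and 718 CPM in KO. *Tbx3*, a T-box factor, had 195 and 204 CPM in WT and 165 and 198 CPM in KO, and *Zfp42*, the zinc finger marker known as Rex1, had 322 and 315 CPM in WT and 304 and 285 CPM in KO. *Zfp42* was the only one of the 10 with both KO libraries below both WT libraries. Between libraries of the same number, KO was below WT for all 10 genes in both numbers with TMM or RLE scaling, and with total counts for 10 in number 1 and 8 in number 2. The share of all genes with either order is not given here, so neither is read as a result about these genes.

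By edgeR's quasi-likelihood test, 0 of the 10 genes passed an FDR of 0.05, and 0 of 15080 genes tested did (0%), with 171 genes and none of the 10 at an unadjusted p under 0.05. DESeq2 called 3 genes and edgeR's likelihood ratio test 1, none of them among the 10. The fitted log2 fold changes of KO over WT were all slightly negative, from -0.04 (*Dppa5a*, 95% confidence interval -0.42 to 0.33) to -0.22 (*Klf4*, -1.03 to 0.59), with a median of -0.10 beside 0.01 over all genes tested. The interval was widest for *Klf4*, whose libraries differed most, and narrower for *Zfp42* (-0.32 to 0.08) and *Pou5f1* (-0.35 to 0.25). With the library number as a block, *Klf4* (-0.22, FDR 0.00212) and *Tfcp2l1* (-0.21, FDR 0.00451) passed, in a fit that called 513 genes, and the labels do not say that a number marks a shared culture or day. Around the 10 genes, none of 25 other general and naive pluripotency genes passed (median log2 fold change -0.03), and none of 26 genes of the LIF, WNT, FGF and BMP pathways (median -0.02).

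The ESC libraries also differed by number. Relative to library 1, library 2 had less of 8 of the 10 genes in WT and of the same 8 in KO, with a median log2 ratio of -0.23 in WT and -0.32 in KO. Over all 15180 genes with at least 10 counts in at least 2 ESC libraries, the median was -0.05 in WT and -0.11 in KO, and the middle 50% ran from -0.22 to 0.19 in WT and from -0.30 to 0.15 in KO. *Klf4* had the lowest ratio of the 10, at -0.59 in WT and -0.66 in KO, just below the 5th percentile of all genes (-0.56 and -0.65). *Klf2* (-0.35 and -0.38), *Tfcp2l1* (-0.32 and -0.37) and *Dppa5a* (-0.28 and -0.34) were below the lower quartile in both genotypes. *Tbx3* was higher in library 2, by 0.06 in WT and 0.26 in KO, and *Sox2* by 0.01 and 0.12. With CPM by total counts 7 of the 10 were lower in library 2 of each genotype, and with RLE size factors 9 in WT and 8 in KO.

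Some other transcripts moved with these ratios. *Col1a1*, a fibroblast collagen, had 82.4 and 80.1 CPM in libraries 1 of WT and KO and 1644 and 2011 CPM in libraries 2, and all 12 feeder fibroblast genes were higher in library 2 of both genotypes. Immediate early genes summed to 1035 and 976 CPM in libraries 1 and to 1866 and 1741 in libraries 2. *Id3*, a BMP target and a single gene of the pathway list, rose from 13.4 and 15.9 CPM to 65.4 and 79.6. That whole list summed to 4442 to 4545 CPM over the 4 ESC libraries. *Tet1*, a methylcytosine dioxygenase and a single gene of the list of other pluripotency genes, went from 1582 and 1573 CPM to 949.5 and 852. The part of fibroblast RNA in the ratios of the 10 genes was not tested.

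**Figure D2:**
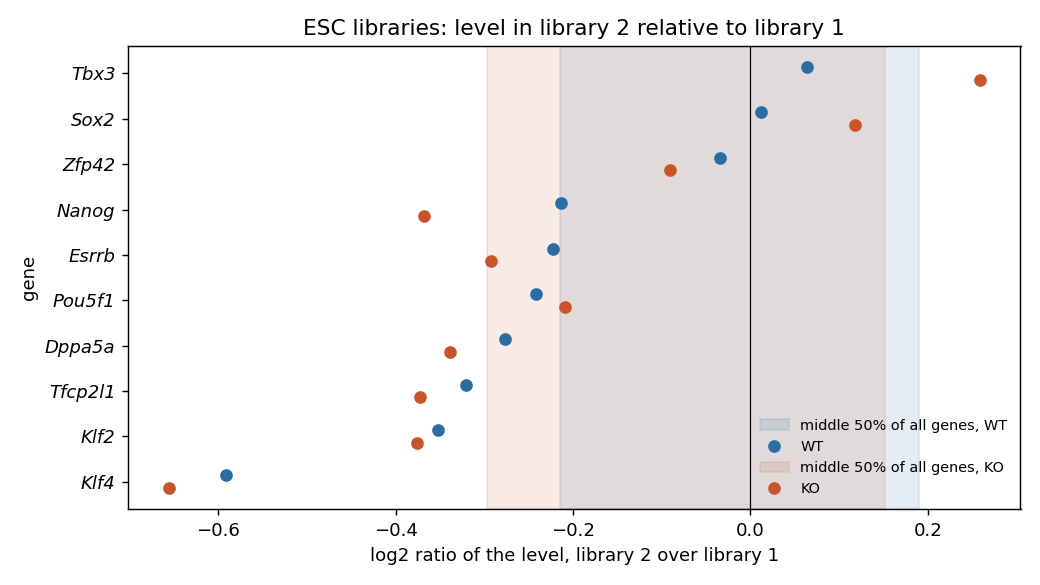
Log2 ratio of the level in ESC library 2 over library 1 on the horizontal axis for each of the 10 genes, WT in blue and KO in orange, with shaded bands for the middle 50% of all 15180 genes. *Klf4* lies farthest left in both genotypes, at -0.59 and -0.66, and *Tbx3* farthest right.

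The next comparison was between ESCs and NPCs, which asked how far each gene was lost in a neural lineage and whether the loss differed without *Phf8*. 9 of the 10 genes were lower in WT NPCs by edgeR's quasi-likelihood test, in a comparison where 37.9% of 16612 genes were called lower. The same 9 were lower in KO NPCs, where 38.2% of genes were called lower. *Sox2* was the exception in both genotypes. *Nanog*, *Zfp42* and *Dppa5a* had too few counts in NPCs for a test within them and entered through their ESC counts, so that their calls had to differ. The median log2 fold change of the 10 was -8.33 in WT and -8.19 in KO, beside -0.06 over all genes in each.

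*Sox2* kept its level. It had 681, 618 and 745 CPM in the 3 WT NPC libraries and 753, 674 and 717 CPM in the 3 KO NPC libraries, a range that takes in all 4 ESC libraries. The log2 fold change of NPCs over ESCs was 0.00 in WT (adjusted p = 0.971) and 0.15 in KO (adjusted p = 0.231), and the 95% confidence intervals, -0.23 to 0.24 and -0.09 to 0.39, include 0. The WT value was -0.02 with RLE size factors.

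*Klf4* and *Klf2* retained the most among the 9. *Klf4* had 9.04, 19.7 and 11.8 CPM in WT NPCs and 8.35, 9.58 and 9.95 CPM in KO NPCs. WT library 2 stood highest, and it is also the NPC library lowest in oligodendrocyte and astrocyte genes. The remaining level of *Klf4* was 2.54% of the WT ESC mean and 2.02% of the KO ESC mean. *Klf2* had 1.30, 2.13 and 3.01 CPM in WT and 3.69, 2.46 and 4.66 CPM in KO NPCs. WT and KO overlapped, and the remaining level was 0.689% of ESCs in WT and 1.22% in KO.

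*Tbx3* varied between NPC libraries, from 3 to 24 counts, or 0.244 to 1.76 CPM, and its mean in WT was 0.506% of the ESC level. *Tfcp2l1* and *Esrrb* were low and even, at 1.38 to 2.46 and 1.06 to 1.66 CPM over the 6 NPC libraries, or 0.332% and 0.165% of the ESC level in WT. *Pou5f1* had between 18 and 34 counts in each NPC library and 1.42 to 2.77 CPM, which was 0.252% of its ESC level in WT. *Nanog*, with 4 to 14 counts, and *Zfp42*, with 5 to 12, were likewise detected in all 6 NPC libraries, at fewer counts. *Dppa5a* had 0 to 5 counts.

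The fitted changes from ESCs to NPCs in WT ran from -5.22 for *Klf4* (SE 0.36, adjusted p = 4.38e-06) through -7.08 for *Klf2*, -7.50 for *Tbx3*, -8.13 for *Tfcp2l1*, -8.53 for *Pou5f1*, -8.72 for *Zfp42*, -9.14 for *Esrrb* and -10.40 for *Nanog* to -11.40 for *Dppa5a* (SE 0.41, adjusted p = 1.63e-07). In KO the order was the same at both ends, from -5.53 for *Klf4* to -11.20 for *Dppa5a*. The largest gap between genotypes was in *Nanog*, which fell by 9.46 on the log2 scale in KO against 10.40 in WT.

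That gap did not pass as a difference between genotypes. In the fit over all 10 cell samples, 0 of the 10 genes and 0 of 16612 genes (0%) differed in their change between KO and WT at an FDR of 0.05, with 247 genes at an unadjusted p under 0.05. *Nanog* was the only one of the 10 among these, with a difference of 0.95 (95% confidence interval 0.05 to 1.85, unadjusted p = 0.0414, adjusted p = 1.0 by edgeR). Its counts in NPCs were 17 over the 3 WT and 30 over the 3 KO libraries, and KO library 1 alone held 14. *Klf2* had a difference of 0.83 (-0.20 to 1.85) and *Pou5f1* one of -0.39 (-0.999 to 0.211). Without the ESC libraries numbered 2, and without the NPC libraries numbered 2, the same count of 9 genes passed in each genotype and 0 passed for the difference.

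**Figure D3:**
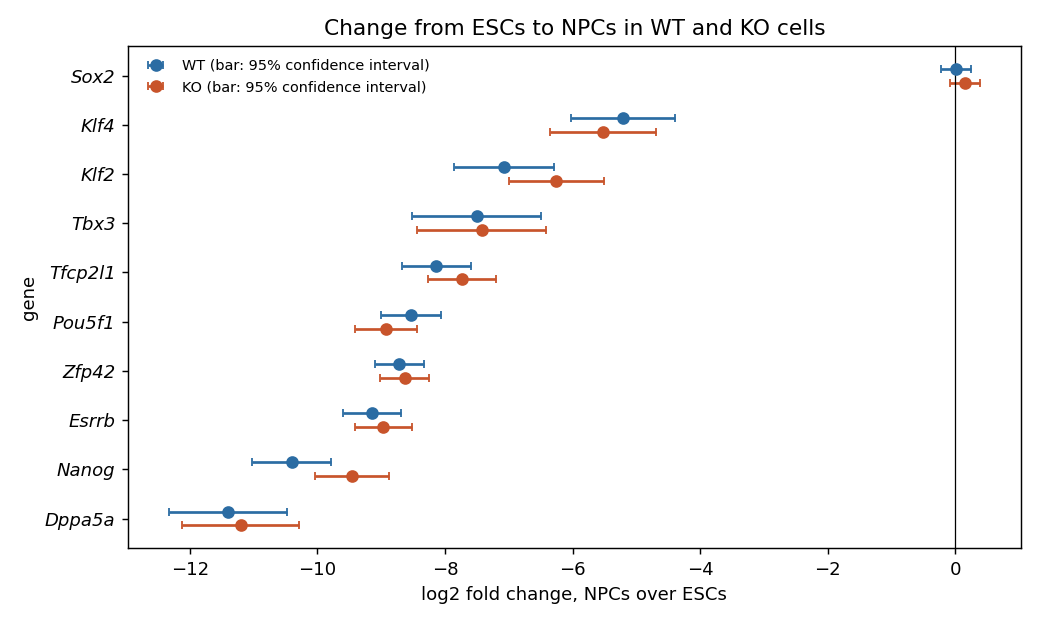
Log2 fold change of NPCs over ESCs on the horizontal axis for each of the 10 genes in WT (blue) and KO (orange), with bars for the 95% confidence interval. *Sox2* lies at 0 and the other 9 between about −5 and −11, with WT and KO intervals that overlap for every gene.

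Genes around the 10 were called in both directions. All 25 other general and naive pluripotency genes were called lower in WT and in KO NPCs, with medians of -10.17 and -9.94. Of all genes tested, 37.9% and 38.2% were called lower. *Lin28a*, an RNA-binding protein gene, fell by 10.73 in WT, *Utf1* by 10.78 and *Tdgf1*, a Nodal co-receptor gene, by 11.34. These, like most of the 25, had too few counts in NPCs for a test within them. They entered through their ESC counts, so that their calls had to differ. Of the pathway genes, 10 of 26 were higher in WT NPCs, where 34.6% of all genes tested were. The smallest adjusted p among them were for *Fgfr1* (1.85), *Smad1* (1.47) and *Stat3* (1.04). Another 5 were lower, beside 37.9% of all genes, with the smallest for *Socs3* (-4.74) and *Lif* (-3.05), and 11 did not pass. *Socs3*, a feedback inhibitor and target of STAT3, was thus lower while *Stat3* was higher. Among 22 paralogs of the 10 genes, 12 were higher in WT NPCs, beside the same 34.6% of all genes. The smallest adjusted p among them were for *Pou3f2* (9.53), *Pou3f3* (8.25) and *Klf7* (2.26). *Pou3f2*, *Pou3f4*, *Sox10* and *Esrrg* had too few counts in ESCs for a test within them. They entered through their NPC counts, so that their calls had to differ. Of the 22, 6 were lower, beside 37.9% of all genes, with the smallest for *Nr5a2* (-7.56), *Klf5* (-6.37) and *Klf9* (-2.19). *Nr5a2* and *Klf5* are also among the 25 pluripotency genes.

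Within NPCs, loss of *Phf8* gave no detected change in these genes. 7 of the 10 had enough counts for the test, and 0 passed, in a comparison with 1 of 14351 genes called (0.00697%), *Phf8* itself. None of the 7 had an unadjusted p under 0.05 in edgeR's test, and DESeq2 and the likelihood ratio test called none of them. *Klf2* had the largest positive value, 0.74 (95% confidence interval -0.18 to 1.66), and *Klf4* the largest negative one, -0.54 (-1.26 to 0.19). *Sox2* was at 0.07 (-0.16 to 0.31), *Pou5f1* at -0.44, *Tfcp2l1* at 0.18, *Esrrb* at 0.12 and *Tbx3* at -0.06, where the interval ran from -1.55 to 1.43. Without WT library 2 *Klf4* was at -0.16. With the library number as a block, 3 genes and none of the 7 were called.

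In adult brain the 10 genes fell into genes at or near 0 counts and genes that remained at a low level. *Zfp42* had 0 counts in all 12 brain libraries. *Pou5f1* had 0 in all 6 striatal libraries and 1 count in total over the 6 PFC libraries, in WT library 1. *Nanog* had 6 counts over STR and 2 over PFC, and *Dppa5a* 9 and 2. Against a floor of 3 counts over a group, which covers counting error only, *Zfp42* was at least 2860-fold lower in WT STR and in WT PFC than in WT ESCs, and *Pou5f1* at least 8280-fold lower in WT STR. The single *Pou5f1* count in WT PFC gave a ratio of 24800 with a 95% counting interval of 4460 to 981000.

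The other 6 genes had counts in every brain library. *Sox2* was the highest of them per length, at 28.1 ± 1.27 RPKM in WT PFC and 31.8 ± 2.17 RPKM in WT STR (SD, n = 3 each), which in CPM was 8.02% and 9.08% of its WT ESC level. *Klf2* came next, with 10.4 ± 3.08 and 8.23 ± 2.83 RPKM (SD, n = 3 each). *Klf4*, at 4.34 ± 0.531 and 3.58 ± 0.174 RPKM, and *Tfcp2l1*, at 1.78 ± 0.427 and 1.45 ± 0.134 RPKM, followed, separated by more than their SDs. *Tbx3*, at 0.796 ± 0.17 and 0.926 ± 0.203 RPKM, and *Esrrb*, at 0.675 ± 0.234 and 0.251 ± 0.0547 RPKM, were lowest, and in PFC these 2 genes did not differ beyond their spread. In bulk tissue, fewer cells that express a gene and less RNA per cell cannot be told apart. Scaling by total counts in place of TMM puts brain 0.37 (PFC) and 0.44 (STR) higher on the log2 scale relative to ESCs for every gene, which leaves this order as it is.

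Relative to WT NPCs, 4 of the 10 genes were called higher in WT PFC (*Tfcp2l1*, *Klf2*, *Tbx3*, *Esrrb*), where 41.4% of 16221 genes were, and 2 lower (*Sox2*, *Pou5f1*), where 38% were. In WT STR, 3 were higher (*Tfcp2l1*, *Klf2*, *Tbx3*), with 42.6% of genes called higher, and 2 lower (*Sox2*, *Pou5f1*), with 36.9%. Only 7 of the 10 had enough counts to be tested, and *Pou5f1* passed that filter through its NPC counts alone, so that its call had to differ.

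*Tfcp2l1* rose from 1.38, 1.58 and 1.98 CPM in WT NPCs to 21.02, 16.2 and 13.01 CPM in WT PFC and 13.9, 14.9 and 12.4 CPM in WT STR. Every brain library stood above every NPC library, and the log2 fold changes were 3.32 (SE 0.23, adjusted p = 2.36e-07) and 3.06 (SE 0.23, adjusted p = 4.69e-07) by edgeR. *Klf2* rose to 21.6, 12.7 and 23.4 CPM in WT PFC and 19.6, 9.42 and 16.6 CPM in WT STR, with log2 fold changes of 3.12 (SE 0.39, adjusted p = 3.08e-05) and 2.83 (SE 0.39, adjusted p = 6.53e-05). *Tbx3* rose by 2.34 in PFC (adjusted p = 0.000734) and by 2.59 in STR (adjusted p = 0.000347), from 0.244 to 1.76 CPM in WT NPCs to 4.402 to 6.55 CPM and 5.20 to 7.68 CPM. These genes thus had more CPM in adult brain than in cultured progenitors, at 2.64% to 6.16% of their WT ESC level. Cells and brain may have been counted with different strand settings, which cannot be told apart from a difference in RNA. *Tbx3* shares 115 exonic bases with *Tbx3os1* on the opposite strand. Reads with no unique alignment were 33.2% to 34.3% in NPC libraries, 7.62% to 8.90% in PFC and 8.01% to 8.61% in STR. Their part in these changes was not tested.

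*Sox2* fell between NPCs and brain, to 54.7, 59.0 and 59.4 CPM in WT PFC and 66.2, 60.5 and 69.3 CPM in WT STR. The log2 fold changes were -3.58 (adjusted p = 7.87e-10) and -3.36 (adjusted p = 1.14e-09). *Pou5f1* went from 87 counts over the WT NPC libraries to 0 over WT STR, at least 21.3-fold lower. *Klf4* did not pass in either region, with 11.7, 13.1 and 14.9 CPM in WT PFC and 10.99, 10.4 and 11.4 CPM in WT STR, and log2 fold changes of -0.05 (95% confidence interval -0.61 to 0.51) and -0.28 (-0.85 to 0.29). Of 6 endothelial genes, 5 were called higher in WT PFC and in WT STR than in WT NPCs, as were *Klf2*, *Tbx3* and *Tfcp2l1*. Of all genes tested, 41.4% and 42.6% were called higher. In WT NPCs 4 of the 6 were at 0 in each library. These 4 passed the filter through their brain counts alone, so that their calls had to differ. *Cldn5*, a tight junction gene of brain endothelium, was at 0 in all NPC libraries and at 35.1 to 57.7 CPM in the 12 brain libraries. The 6 summed to 67.2 to 237 CPM in NPCs, 170.1 to 242.5 CPM in STR and 196.5 to 289 CPM in PFC. Genes of some other cell types were higher in brain too. Microglial genes summed to 0.633 to 1.58 CPM in NPCs, 243.5 to 279.5 CPM in STR and 238 to 264 CPM in PFC. Mural and leptomeningeal genes summed to 1.84 to 10.9, 148 to 209 and 175 to 222 CPM. Astrocyte and oligodendrocyte sums overlapped between NPCs and brain. The part of endothelial or other cell types in the levels of *Klf2* and *Tbx3* was not tested.

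Other pluripotency genes showed the same division. Of 25 outside the 10, 6 had enough counts in the WT brain and NPC libraries to be tested. *Klf5* was higher in brain than in NPCs (2.38 in PFC and 2.73 in STR), *Tet2* passed as higher in STR (0.41) and was at -0.05 in PFC, and *Mybl2* (-4.40 and -3.22) and *Tet1* (-1.72 and -1.62) were lower. Among the paralogs, *Esrrg*, a relative of *Esrrb*, rose by 4.44 in PFC and 4.35 in STR.

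Between the 2 brain regions, *Esrrb* was the only one of the 10 that passed, as higher in WT PFC, where 7.35% of genes were called higher. It had 4.07, 5.50 and 2.67 CPM in WT PFC and 1.499, 1.86 and 1.20 CPM in WT STR. The WT regions did not overlap, and the log2 fold change was 1.41 (95% confidence interval 0.72 to 2.10, adjusted p = 0.0113 by edgeR). KO samples were not part of this test. They had 3.63, 4.93 and 4.05 CPM in PFC and 4.68, 2.33 and 1.77 CPM in STR, which overlap. The call was lost without STR WT replicate 1 (adjusted p = 0.0522), without STR WT replicate 3 (0.057) or without PFC WT replicate 2 (0.0586). *Sox2* leaned the other way, -0.22 (-0.45 to 0.01), without passing.

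None of the 6 remaining genes passed the test of KO against WT in either region. In STR 0 of the 6 and 0 of 15476 genes passed (0%), with 1346 genes at an unadjusted p under 0.05, *Sox2* and *Esrrb* among them. DESeq2 called 53 and the likelihood ratio test 94 genes there, none of the 6. In PFC 0 of the 6 passed, where 98 of 15364 genes did (0.638%), and none of the 6 had an unadjusted p under 0.05.

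*Esrrb* in STR had 1.499, 1.86 and 1.20 CPM in WT and 4.68, 2.33 and 1.77 CPM in KO. KO library 1 stood highest, and it was also the library with the hypothalamic genes, among them *Otp* at 17.8 CPM and *Sim1* at 5.35 CPM where the other striatal libraries had at most 0.4997 and 0. The log2 fold change was 0.96 (95% confidence interval 0.05 to 1.86, adjusted p = 0.555), and without KO library 1 it was 0.44 (adjusted p = 0.999). *Tfcp2l1* was lowest of the striatal libraries in the same one, at 9.03 CPM where the others had 12.4 to 16.9. The part of hypothalamic tissue in either value was not tested.

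*Sox2* passed in neither region, and its values lay on opposite sides of WT. In STR it had 66.2, 60.5 and 69.3 CPM in WT and 79.2, 71.6 and 72.4 CPM in KO, and in PFC 54.7, 59.0 and 59.4 CPM in WT and 51.8, 53.8 and 51.9 CPM in KO. Every KO library was above every WT library in STR and below every WT library in PFC. The share of all genes separated in this way is not given here. The log2 fold changes were small, 0.20 (95% confidence interval 0.01 to 0.38, adjusted p = 0.561) and -0.15 (-0.32 to 0.02, adjusted p = 0.543). The difference between them, tested over all 12 brain samples as a comparison added after the values were seen, was -0.32 (-0.54 to -0.09, unadjusted p = 0.0101, adjusted p = 0.642), where 1 of 16028 genes passed (0.00624%). Without STR KO library 1, the one with the hypothalamic genes and the highest *Sox2*, the change in STR was 0.14 (adjusted p = 0.999) and the difference -0.285 (adjusted p = 1.0). In KO PFC, where 0.475% of genes were called lower, 2 of 5 oligodendrocyte genes passed as lower and 0 of 4 astrocyte genes did. The 2 were *Mog* (-0.95, adjusted p = 0.00369) and *Mobp* (-0.59, adjusted p = 0.0258). *Gfap* (-0.49), from the neural progenitor list, and *Sox10* (-0.59), from the paralog list, also passed, and no other gene of either list did. The 5 oligodendrocyte genes summed to 1392 to 1837 CPM in WT and 1165 to 1241 CPM in KO PFC, and the 4 astrocyte genes to 1400 to 1528 and 1399 to 1491 CPM. In STR none of these 9 genes passed, and 0 of all 15476 genes tested there did. The part of glial RNA in the *Sox2* values was not tested.

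The other genes showed no shared direction by genotype. In STR *Klf4* was at 0.04, *Tfcp2l1* at 0.01, *Tbx3* at -0.34 and *Klf2* at -0.22. In PFC *Klf4* was at -0.05, *Tfcp2l1* at -0.12, *Tbx3* at -0.10, *Esrrb* at -0.02 and *Klf2* at -0.50 (95% confidence interval -1.12 to 0.12). The interval of *Klf2* was wide in STR as well, from -1.17 to 0.73.

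**Figure D4:**
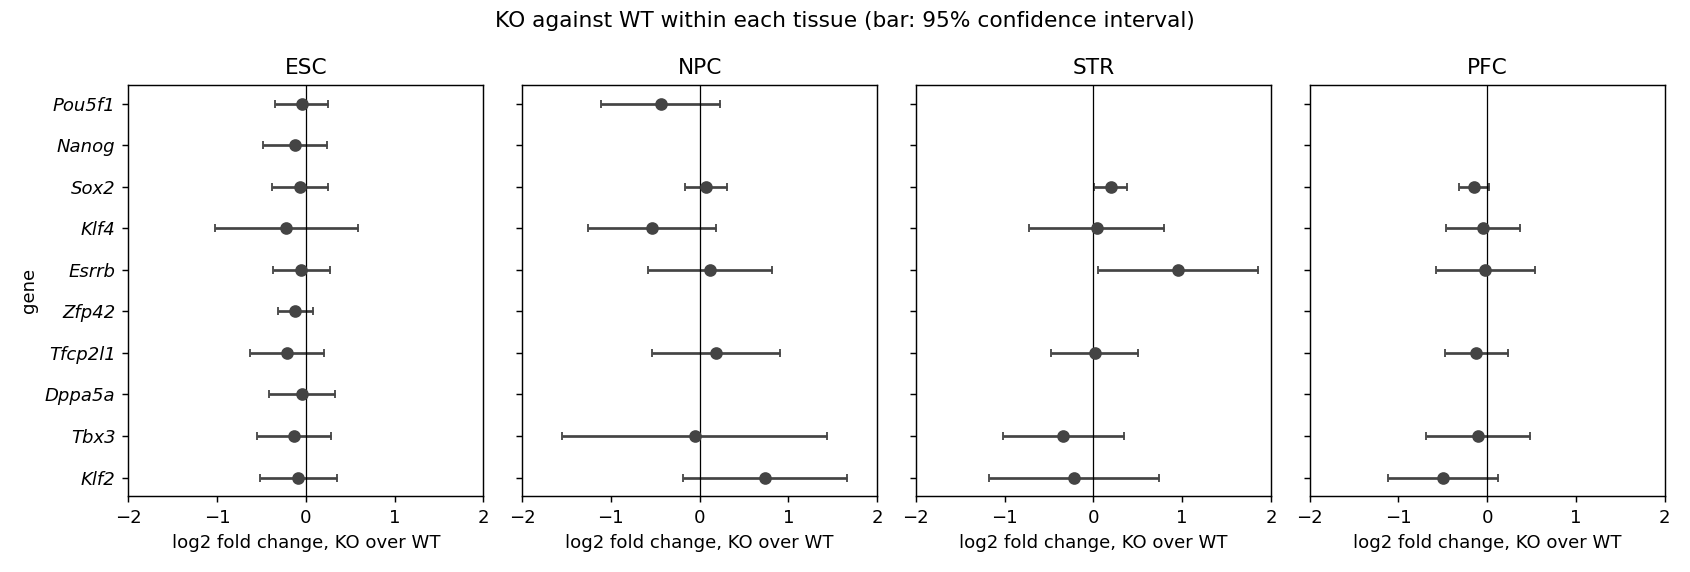
Log2 fold change of KO over WT on the horizontal axis within ESCs, NPCs, STR and PFC, with bars for the 95% confidence interval. Genes with too few counts for the test have no point. All 10 ESC values lie between -0.22 and -0.04, and *Sox2* has the narrowest brain intervals, at 0.195 in STR and -0.148 in PFC.

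Levels of *Klf2* were set beside those of immediate early genes. For *Klf2*, KO library 3 was lowest in both regions, with 6.19 CPM in STR and 9.44 CPM in PFC, and also lowest for *Klf4* (5.05 and 9.19 CPM) and *Tbx3* (2.78 and 2.94 CPM). The same 2 libraries were lowest for 7 immediate early genes, which rise within minutes to hours of neuronal activity, with sums of 378 CPM in STR (the others 523.5 to 828) and 652 CPM in PFC (the others 748 to 1375). *Npas4* was at 5.43 and 22.7 CPM there where the others had 21.3 to 44.8 and 40.9 to 84.6 CPM.

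Over the 6 striatal libraries, *Klf2* had a Pearson r of 0.956 with the mean log2 level of these immediate early genes (exact permutation p = 0.00417, adjusted p = 0.05 over 12 relations of 6 genes in 2 regions). Spearman rho was 0.943 (exact permutation p = 0.0167, adjusted p = 0.2). Neither adjusted p was under 0.05. Without the 2 libraries farthest from the median, KO 3 and WT 1, r was 0.826, and with each genotype centred on its own mean it was 0.989. *Klf4* had an r of 0.772 (exact permutation p = 0.0792, adjusted p = 0.317) and a rho of 0.486 (p = 0.356 by exact permutation, adjusted p = 0.629), and r fell to 0.266 without the 2 farthest libraries, so the relation rested on them. The other 4 genes had r between -0.283 and 0.512 in STR. In PFC the 6 libraries formed a low pair (WT 2 and KO 3, at 6.41 and 6.13 on the log2 scale) and a high group of 4 (7.10 to 7.27), so no r is given for that region. *Klf2* was 12.7 and 9.44 CPM in the low pair and 12.5 to 23.4 CPM in the high group, which overlap. The relations were chosen with earlier values known.

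**Figure D5:**
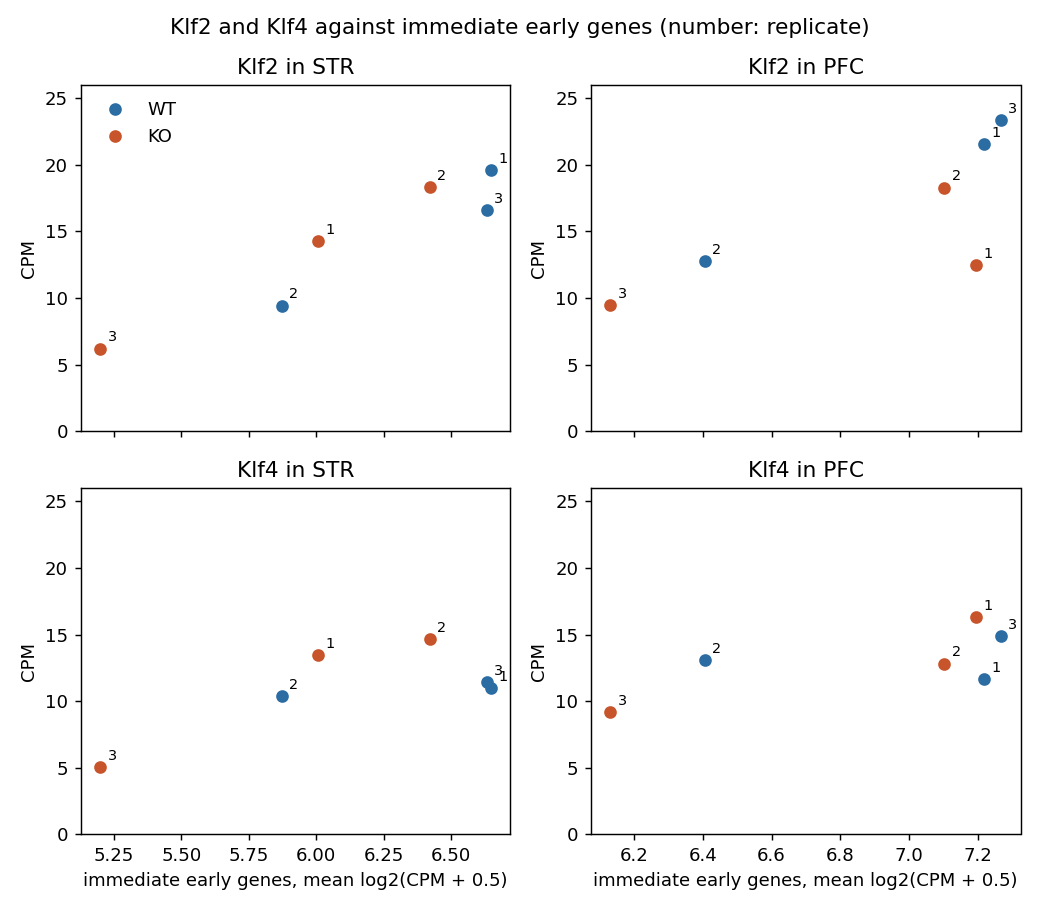
CPM of *Klf2* (top) and *Klf4* (bottom) on the vertical axis against the mean log2(CPM + 0.5) of 7 immediate early genes on the horizontal axis in the 6 STR libraries (left) and 6 PFC libraries (right), WT in blue, KO in orange, numbered by replicate. KO library 3 is lowest in all 4 panels, and *Klf2* in STR rises from 6.19 CPM there to 19.6 CPM in WT library 1.

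Across all 22 samples the 10 genes fell into like patterns, which mostly restate the difference between ESCs and the other tissues. As a description, with points that share tissue and library, Pearson r of log2(CPM + 0.5) was 0.997 between *Nanog* and *Zfp42*, 0.995 between *Pou5f1* and *Zfp42* and 0.976 between *Tfcp2l1* and *Tbx3*, and 0.058 between *Sox2* and *Tfcp2l1*. Of 18349 genes with at least 10 counts in at least 2 samples, those most like *Pou5f1* were *Uba2* (r = 0.998) and *Mrpl15* (0.996), those most like *Nanog* were *Igf2bp1* (0.998) and *L1td1* (0.997), and *Zfp42* shared the latter pair in the other order (0.999 and 0.997). *Sox2* was most like *Trp53inp1* (0.997) and *Plcb3* (0.996), and *Dppa5a* like *Tdgf1-ps1* and Gm6798 (0.998 each), the second of which shares sequence with it. *Klf4* was nearest to *Mtf2* (0.989) and *Ddx27* (0.988), *Esrrb* to *Folr1* (0.991) and *Drosha* (0.99), *Tfcp2l1* to *Ppp1r15a* (0.991) and *Zfp984* (0.99), *Tbx3* to *Itpr3* (0.985) and *Hmces* (0.984), and *Klf2* to *Calca* (0.979) and *Sigirr* (0.978).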

How the data were processed

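RNA of 22 bulk samples was sequenced on an Illumina HiSeq. The authors deposited unnormalized read counts per gene, made with STAR on mm10 and HTSeq on Ensembl gene models, with CASAVA 1.7 named in the submitters' processing notes. Rows that name no gene were left out of library sizes. Whether counting used strand is not given in the sources used here, and cells and brain may have been counted with different settings. Samples were grouped by their labels. The 10 genes and the gene lists were chosen with earlier results of these data known.

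Counts were tested with edgeR 4.0.16 (R 4.3.3) by the quasi-likelihood test, after filterByExpr and TMM scaling, within the samples of each comparison, and adjusted by Benjamini-Hochberg over all genes tested, with an FDR threshold of 0.05. CPM used TMM over all 22 samples, and RPKM the exonic length in GENCODE M21, which held 37693 of 39179 identifiers. Folds at or under 3 counts over a group are bounds or carry exact counting intervals. Correlations used exact permutation (scipy 1.17.1, Python 3.11.15). The fit was tested on simulated counts.

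Alternatives were RLE size factors, DESeq2 1.42.0, the likelihood ratio test, no filter, all 8 groups in 1 fit, the replicate number as a block, and each replicate left out. Deviations from the group mean had an r of 0.524 to 0.705 between same-numbered WT and KO NPC libraries, and of 0.186 to 0.392 between WT PFC and STR. Libraries of unlike number reached at most 0.292 and 0.0751. The labels name no pairs, and the matching was not tested. Genes named from a list have the smallest adjusted p in each direction, up to 3. Some genes that this rule would name are not reported here. The comparison between brain regions of the KO change, the immediate early relations, the ATGCAAA search and the fits without libraries numbered 2 were added after seeing the data.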

Additional observations from a re-analysis of the deposited data

Results flagged for a closer look

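*Sox2* was listed because its KO libraries lay on opposite sides of WT in the 2 brain regions, although it passed in neither. KO over WT was 0.195 in STR and -0.148 in PFC on the log2 scale, with all 3 KO libraries above all 3 WT libraries in STR and all 3 below in PFC. How many of all genes separate in this way is not given here. The test of the difference used the values by which *Sox2* was listed. The difference of the 2 changes was -0.32 (SE 0.11, unadjusted p = 0.0101, adjusted p = 0.642 by edgeR's quasi-likelihood test over 12 samples), and it did not pass the correction. Without STR KO library 1, which also held hypothalamic genes, the STR change was 0.14 (adjusted p = 0.999) and the difference -0.285 (adjusted p = 1.0). Over the alternatives its adjusted p ran from 0.329 to 1.0.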

How the results depend on the processing

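The count of 9 genes lower in NPCs was 9 in all 19 settings for WT and for KO, and the count for the difference between genotypes was 0 in all 19. Counts among the 10 genes for KO against WT were 0 in every setting in NPCs, STR and PFC. In ESCs the replicate block called 2 of the 10 (*Klf4*, *Tfcp2l1*) and 513 genes. Deviations from the group mean correlated between same-numbered WT and KO ESC libraries at r = 0.876. With 2 libraries a group the deviations are mirror images, so both numbers must give the same r. The block changed no other count among the 10. The cause of the change was not tested.

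Genes called ranged over the settings from 0 to 513 in ESCs, 0 to 5 in NPCs, 0 to 94 in STR, 1 to 388 in PFC, 1575 to 3722 between WT regions and 0 to 26 for the difference between regions. Of the 10 genes, 6 to 9 were called between WT PFC and NPCs and 5 to 7 between WT STR and NPCs, the higher counts with more genes tested, and 0 to 1 between WT PFC and STR with a replicate left out. The KO ESC library ratio had a median of -0.20 by total counts.

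Some values changed sign with another scaling, tool or model. *Sox2* between WT NPCs and ESCs was -0.02 with RLE size factors, -0.02 with DESeq2, -0.034 with the replicate block and -0.078 with all 8 groups. With the block *Tbx3* in KO NPCs was 0.003, *Klf4* -0.047 and *Tfcp2l1* -0.021 in KO STR, and *Esrrb* 0.021 in KO PFC (0.007 with DESeq2). *Klf4* between WT PFC and NPCs was 0.003 with RLE size factors and with DESeq2.

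With a replicate left out, KO over WT in ESCs ran from -0.14 to 0.047 for *Pou5f1*, -0.19 to 0.045 for *Sox2*, -0.52 to 0.07 for *Klf4*, -0.15 to 0.035 for *Esrrb*, -0.16 to 0.07 for *Dppa5a*, -0.34 to 0.036 for *Tbx3* and -0.23 to 0.067 for *Klf2*; the lone ESC sample is then assumed to vary like the other group. *Sox2* between WT NPCs and ESCs ran from -0.062 to 0.067. In NPCs *Esrrb* ran from -0.015 to 0.27, *Tfcp2l1* from -0.064 to 0.34 and *Tbx3* from -0.52 to 0.65. *Klf4* ran from -0.28 to 0.31 between WT PFC and NPCs and from -0.51 to 0.082 between WT STR and NPCs. In PFC *Klf4* ran from -0.26 to 0.14, *Esrrb* from -0.21 to 0.28, *Tfcp2l1* from -0.25 to 0.067 and *Tbx3* from -0.29 to 0.16, and in STR *Klf4* from -0.22 to 0.38, *Tfcp2l1* from -0.15 to 0.24 and *Klf2* from -0.56 to 0.11.

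Low counts limit *Nanog* (at most 14 a library), *Zfp42* (at most 12) and *Dppa5a* (at most 5) outside ESCs.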
